A study of Triticum aestivum with 9 samples.

Results

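Bip, the binding protein of the endoplasmic reticulum (ER), was followed through 6 wheat genes of that name. They are the Bip entries in the study's list of differentially expressed genes of the ER protein processing pathway, and all 6 were found among the 130542 genes of the deposited expression table. Because that list was selected on the changes between the same libraries, the levels and fold changes of the 6 genes are given as a description, without P-values, and how many of them pass the thresholds is stated only beside the share of all genes that do. The libraries were made from leaf RNA of Yunong211 wheat seedlings after 2 days of treatment, with 3 biological replicates in each group. Group T had received 7.5 mM DTT together with 25 μg/mL TUDCA in the nutrient solution, group D 7.5 mM DTT alone, and the control group C neither. DTT is a reducing agent that breaks disulfide bonds and so disturbs protein folding in the ER, and TUDCA is a bile acid that serves as a chemical chaperone. No group with TUDCA alone was analysed here, so T differs from C in both chemicals and from D in TUDCA. The comparisons are written D/C, T/C and T/D, each with the group named before the stroke over the one after it. They share libraries with each other (D/C and T/C the controls), so their values are given side by side.

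Bip is the Hsp70 chaperone of the ER lumen. It binds stretches of unfolded protein in a cycle driven by ATP, in which Hsp40 (DnaJ) partners promote ATP hydrolysis and nucleotide exchange factors (NEFs) reset the chaperone. When unfolded proteins build up, the unfolded protein response raises the transcription of Bip and other folding genes, in Arabidopsis through the transcription factors bZIP60 and bZIP28. Bread wheat carries A, B and D genomes, so that most genes have closely related homoeologous copies, and the gene identifiers used here name the chromosome and arm of each copy.

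The 6 copies are Traes_6AS_236AF32FD on the short arm of chromosome 6A, Traes_2BL_44AF6C8FD on the long arm of 2B, Traes_2AL_A6DF4B935 on the long arm of 2A, Traes_2BS_FF5A68083 on the short arm of 2B, Traes_7DL_988A0B630 on the long arm of 7D and Traes_1BL_EFDDA2877 on the long arm of 1B. They are called below by their arms. No coordinates are given, because the genome release is not given in the sources used here, and none of the identifiers matched the RefSeq gene table. Transcript lengths implied by the expression values were 2759 bp for the 6AS copy, 2196 bp for 2BS and 1706 bp for 7DL, and shorter for the other copies, with 943 bp for 1BL, 687 bp for 2AL and 657 bp for 2BL. Whether reads that match several copies were shared between them is not stated, so values of closely related copies are uncertain to that extent.

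The study designed PCR primers for 3 of the 6 copies, and these are shown because they are the sequences by which the study assayed the group 2 copies outside RNA-seq. All 6 primers have 20 bases, of which 12 are G or C (60%). They are written 5′ to 3′.
Traes_2AL_A6DF4B935 forward: ggacaagctggcagacaagc
Traes_2AL_A6DF4B935 reverse: ctcggccgtctggttctcat
Traes_2BL_44AF6C8FD forward: agctcaacgccgacctcttc
Traes_2BL_44AF6C8FD reverse: gctgctgcaccttgggaatc
Traes_2BS_FF5A68083 forward: acacagagaacgccgaggag
Traes_2BS_FF5A68083 reverse: catggccgagatgacagggt

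Expression is given as scaled FPKM, that is fragments per kilobase of transcript relative to all mapped fragments of the library, divided by a library factor of 0.861 to 1.096. The libraries held 16334906 to 26760247 fragments on genes. T replicate 2 stood apart from its group, with 2186 of 55137 genes more than 4-fold from the mean of its group mates, against 146 to 330 genes in the other 8 libraries, so values are also given without it. The leaf label was checked with 24 genes of the oxygen evolving complex of photosystem II. They were taken from the study's genes changed in D/C, so a difference between D and C follows from how they were selected. In D/C, 18 of them passed the thresholds described below as lower and 4 as higher, which the sum does not show. Their summed scaled FPKM was 5030 to 5650 in T and 4570 to 4750 in D, against 9660 to 13200 in C, and none of the 24 was at 0 in a whole group. The part of this lower leaf marker level in the Bip values was not tested, and in bulk leaf RNA fewer cells of a type cannot be told apart from less RNA per cell.

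Added over the 6 copies, Bip was most abundant in the seedlings given DTT and TUDCA, next in those given DTT, and least in the control. The summed level was 73.8, 164 and 41.8 scaled FPKM in T replicates 1, 2 and 3, 45.2, 45.5 and 17.5 in D, and 15.2, 12.4 and 9.3 in C. Every T and D library was above every C library, whereas T replicate 3 was below D replicates 1 and 2. The mean was 93.2 ± 63.4 in T, 36.1 ± 16.1 in D and 12.3 ± 2.93 in C (SD, n = 3). The ratio of means was 2.94 for D over C, 7.59 for T over C and 2.58 for T over D. Without T replicate 2 the mean of T was 57.8, and the ratios became 4.71 over C and 1.6 over D.

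Among the 6 copies, the main one in every library was Traes_6AS_236AF32FD, the only one with more than 1 fragment in any control library. Its level was 59.0, 128 and 30.2 scaled FPKM in T, 34.2, 40.3 and 16.7 in D, and 15.1, 12.4 and 9.29 in C. The D and T libraries lay above all controls, and T replicate 3 lay inside the range of D. Its level was above that of 95.1 to 99% of the 78030 genes tested in T, 89.2 to 96.5% in D and 81 to 88.4% in C, so that it was already well expressed in control leaves. Means were 72.5 ± 50.4 in T, 30.4 ± 12.3 in D and 12.2 ± 2.89 in C (SD, n = 3), which gives 2.48-fold for D over C, 5.92-fold for T over C and 2.39-fold for T over D. Without T replicate 2, T was 3.64-fold above C and 1.47-fold above D. On the log2 scale the differences were 1.24 for D/C, 2.34 for T/C and 1.10 for T/D, each with a standard error of 0.49 from limma.

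The other 5 copies were silent or nearly so in control leaves. Together they had 0.104, 0 and 0.0179 scaled FPKM in the control libraries, which came from a single fragment of 2AL in replicate 1 and a fragment of 2BS each in replicates 1 and 3. Their sum was 14.8, 35.7 and 11.6 in T and 11, 5.2 and 0.817 in D. All treated libraries were thus above the control, and the T libraries above the D libraries. Since few or no control fragments stood behind these copies, a fold over C is given as a lower bound against 3 fragments per library where C had none, and otherwise as the pooled ratio with its exact 95% counting interval. The bounds and intervals cover counting error only.

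Traes_2BL_44AF6C8FD was the second most abundant copy. It had 8.63, 19 and 4.39 scaled FPKM in T, 6.36, 3.28 and 0.387 in D, and no fragment in any control library. T replicate 3 was below D replicate 1, so that T and D overlapped, and D replicate 3 was far below the rest with 6 fragments. Group means put T at least 44.7-fold, and D at least 14-fold, higher than C. Without T replicate 2 the bound for T was 27.2-fold, and without D replicate 1 the bound for D was 7.66-fold. T was 3.2-fold above D (1.95-fold without T replicate 2 and 5.83-fold without D replicate 1), with a log2 difference of 2.05 (SE 0.84, limma).

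Traes_2AL_A6DF4B935, on the corresponding arm of 2A, followed the 2BL copy at a somewhat lower level. It had 4.4, 12.7 and 4.70 scaled FPKM in T, 3.11, 1.42 and 0.185 in D, and 0.0793, 0 and 0 in C. Here every T library was above every D library, and every D library above every control. With 271 fragments in T, 71 in D and 1 in C, the pooled ratio was 63.5 for D over C (95% interval 11 to 2540) and 288 for T over C (51.2 to 11400). The mean of T was 4.62-fold that of D (2.89-fold without T replicate 2 and 9.03-fold without D replicate 1), and the log2 difference was 2.54 (SE 0.78, limma).

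Traes_2BS_FF5A68083 was lower again, with 0.91, 2.07 and 1.84 scaled FPKM in T, 0.81, 0.29 and 0.154 in D, and 0.0248, 0 and 0.0179 in C. The 3 groups did not overlap, although T replicate 1 and D replicate 1 were close. The copy had 191 fragments in T, 61 in D and 2 in C, and the 95% interval of the pooled ratio was 27.7 to 844 for T over C and 7.24 to 230.0 for D over C. T was 3.84-fold above D by the means, 3.29-fold without T replicate 2 and 7.23-fold without D replicate 1, so this copy rested less on T replicate 2 than 2BL did. Its log2 difference for T/D was 1.85 (SE 0.50, limma).

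The remaining copies were scarce in every library. Traes_7DL_988A0B630 had 0.218, 1.16 and 0.27 scaled FPKM in T, 0.704, 0.0574 and 0 in D, and none in C. T replicate 2 and D replicate 1 carried most of its fragments, 34 of 50 in T and 27 of 29 in D, and T and D overlapped. The ratio of mean T to mean D was 2.17, and it was 0.963 without T replicate 2, 19.2 without D replicate 1 and 1.44 without D replicate 3. The log2 difference, which averages the logs, was 1.18 and stayed positive without T replicate 2 (0.56). Against the floor of C, T was at least 5.96-fold higher, or 2.65-fold without T replicate 2. D was at least 2.75-fold higher by its mean, but D replicate 3 had no fragment, like the controls, and without D replicate 1 the group was itself at the floor and no bound remained.

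Traes_1BL_EFDDA2877 had 0.69, 0.74 and 0.367 scaled FPKM in T, 0.0471, 0.156 and 0.0899 in D, and none in C. The 3 T libraries were above the 3 D libraries, and replicate 2 was close to replicate 1. D held 6 fragments in all and was at the floor together with C, so no fold is given between them. T was at least 3.6-fold higher than C, and the pooled ratio of its 32 fragments to the 6 of D was 6.33 (exact 95% interval 2.61 to 18.5), with each D library at 3 fragments or fewer.

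**Figure D1:**
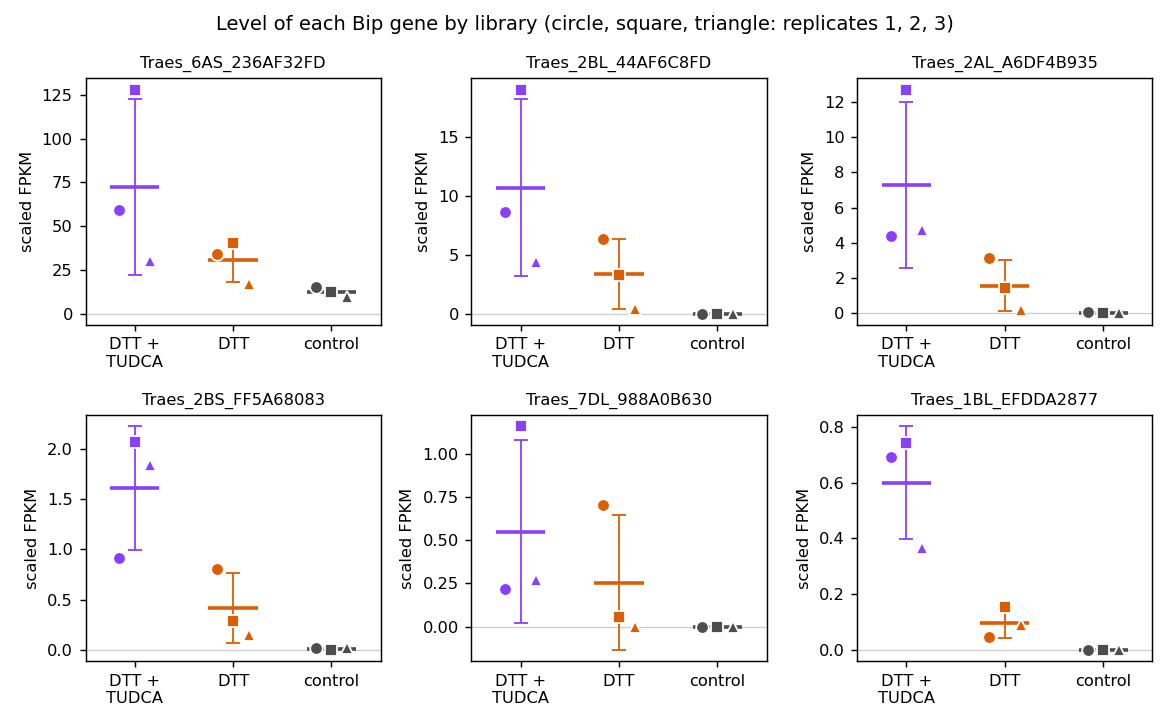
Scaled FPKM (linear axis) of each Bip gene in the DTT + TUDCA, DTT and control libraries. Symbols are replicates, the wide line is the mean and the bar is the SD (n = 3). T replicate 2 (square) is the highest library in all 6 panels, and the 5 panels other than Traes_6AS_236AF32FD have their control libraries at or near 0.

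Across the whole table, a gene was called when limma gave an unadjusted P-value under 0.01 and a log2 fold change of at least 1, the thresholds of the study's methods. All 6 copies passed the minimum mean FPKM of 0.1, and the 5 scarce copies did so through the treated libraries. In D/C, 3 copies were called higher (2BL, 2AL and 2BS), beside 4.27% of all genes tested. In T/C, 5 copies were called higher (all but 7DL), beside 4.36%. In T/D, 3 copies were called higher (2AL, 2BS and 1BL), beside 0.632%. These calls rest on unadjusted P-values. Only 1 of all genes tested had a Benjamini-Hochberg-adjusted P-value under 0.05 in T/D (limma), and it was not a Bip copy. No copy was called lower in any of the 3 comparisons. Libraries did not overlap, with the first group higher, for 5 copies in D/C (background 16.6%), for 6 in T/C (15.3%) and for 3 in T/D (5.56%). The genes were selected on these same libraries, so these counts are not independent evidence. The study's own D/C list, from DESeq, holds 2BL, 2BS and 6AS. The main copy 6AS was thus listed there but not called here, and 2AL was called here but not listed there. Without T replicate 2, T/D left 1 copy called (1BL), and the same was found without D replicate 2 and without D replicate 3. That copy had only 6 fragments in D, which was at the floor. T/D left 4 copies without D replicate 1 and 2 without any other single library. In D/C, 2 copies were called without C replicate 2, D replicate 1 or D replicate 2, and 4 without T replicate 2. With 1 added before the log2, no copy was called in D/C and only 2AL in T/D, and with 0.01 added or a minimum mean FPKM of 1 none was called in T/D.

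The make-up of the summed level of these 6 copies differed between the groups. Any Bip gene outside the study's list is in neither the sum nor the shares. Traes_6AS_236AF32FD supplied 79.9, 78.2 and 72.3% of the summed level in T, 75.6, 88.6 and 95.3% in D, and 99.3, 100 and 99.8% in C. Its share was below that of every control library in all 6 treated libraries, with T and D overlapping through D replicate 1. The mean share was 76.8 ± 3.99% in T, 86.5 ± 10.0% in D and 99.7 ± 0.354% in C (SD, n = 3).

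On average the 2BL copy came next in T and D, although 2AL was ahead of it in T replicate 3 (11.3%). It made up 11.7, 11.6 and 10.5% in T and 14.1, 7.21 and 2.22% in D, a narrow range in T and a wide one in D. The 2AL copy made up 8.32 ± 2.7% in T, 3.69 ± 2.94% in D and 0.174% in C, and 2BS 2.3 ± 1.82%, 1.1 ± 0.607% and 0.119% (SD, n = 3). The 7DL and 1BL copies stayed below 1% on average in every group. The 7DL copy made up 0.55 ± 0.223% in T and 0.561 ± 0.864% in D (SD, n = 3), where the D value rested on D replicate 1, with 1.56, 0.126 and 0% in the 3 D libraries. The 1BL copy made up 0.755 ± 0.264% in T and 0.32 ± 0.206% in D (SD, n = 3). These shares are per transcript length. Counted as fragments, the long 6AS transcript held 91.4 ± 2.65% of the fragments of the 6 copies in T, 95.3 ± 3.8% in D and 99.9% in C.

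**Figure D2:**
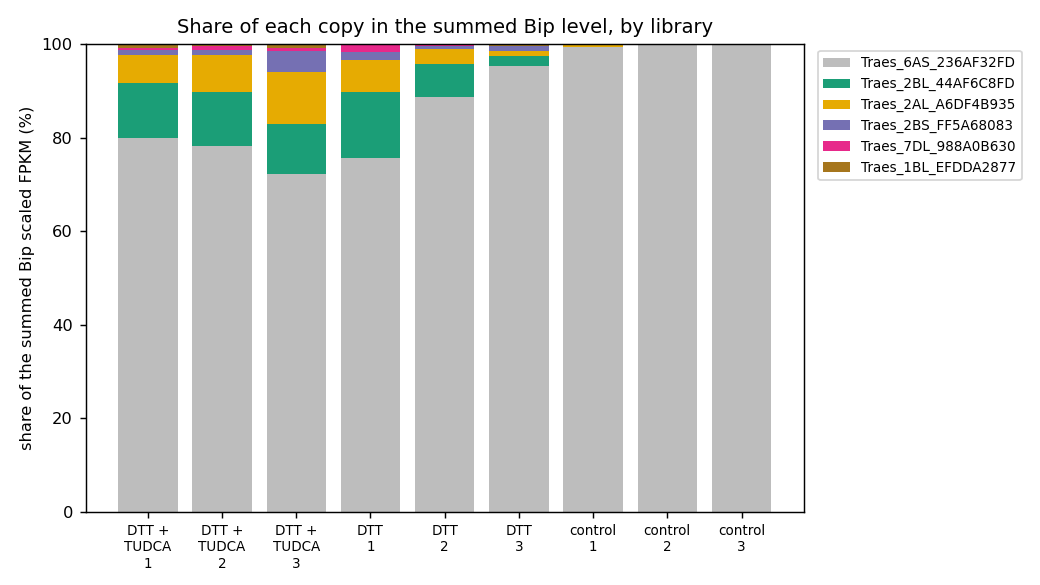
Share (%) of each copy in the summed Bip scaled FPKM, by library, for DTT + TUDCA, DTT and control replicates 1 to 3. The grey block, Traes_6AS_236AF32FD, takes 72.3 to 79.9% in T, 75.6 to 95.3% in D and 99.3 to 100% in C.

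Within the treated libraries the copies had the same highest library but 5 different orders among the 6 of them. T replicate 2 was the highest of all 9 libraries for all 6 copies, as it was for 24% of all genes tested, and D replicate 3 was the lowest D library for 5 copies, beside 32.6% of all genes. The exception was 1BL, which was lowest in D replicate 1. It had 1, 3 and 2 fragments in D replicates 1, 2 and 3, and 14 and 12 in T replicates 1 and 2. Such counts are too small to rank these libraries, so the order of 1BL is uncertain. From high to low, 2AL and 2BS ran through the 6 treated libraries identically, as T replicates 2, 3 and 1 and then D replicates 1, 2 and 3. For 2AL, T replicates 3 and 1 were close, with 56 and 65 fragments, and 7DL had 8 in each. The order of T replicates 1 and 3 is therefore uncertain for 2AL and 7DL, and so is the count of 5 orders. The 6AS and 2BL copies placed T replicate 3 lower, below 2 D libraries for 6AS and below D replicate 1 for 2BL. The 7DL copy had D replicate 1 in second place, the library in which 1BL was lowest.

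Set to 100% in T replicate 2, the copies differed in how far the other libraries fell behind. In T replicate 3 the 6AS, 2BL and 7DL copies reached 23.5, 23.1 and 23.3% of that level, 2AL 37.0%, 1BL 49.6% and 2BS 89.0%. In D replicate 3 they reached 13.0% for 6AS, 12.1% for 1BL, 7.47% for 2BS, 2.03% for 2BL and 1.46% for 2AL, and 7DL was not detected. The 6AS and 1BL copies thus had the largest percentages in that library, and the 2AL and 2BL copies the smallest among those detected. Behind these values in D replicate 3 stood 2 fragments of 1BL, 3 of 2AL, 6 of 2BL and 8 of 2BS. The order of these copies among themselves, and of 1BL against 6AS, is therefore uncertain. Over the 6 treated libraries, Pearson's r of log2(scaled FPKM + 0.1) between copies was 0.38 to 0.97 over 15 pairs (median 0.83), and Spearman's rho 0.37 to 1.0 (median 0.77). The highest r was that of 2BL and 2AL and the lowest that of 7DL and 1BL, the scarcest copies, whose small counts limit r. Without T replicate 2, r ranged over 0.03 to 0.96 (median 0.76). The points share their libraries and span 2 groups, so these values only describe the order.

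**Figure D3:**
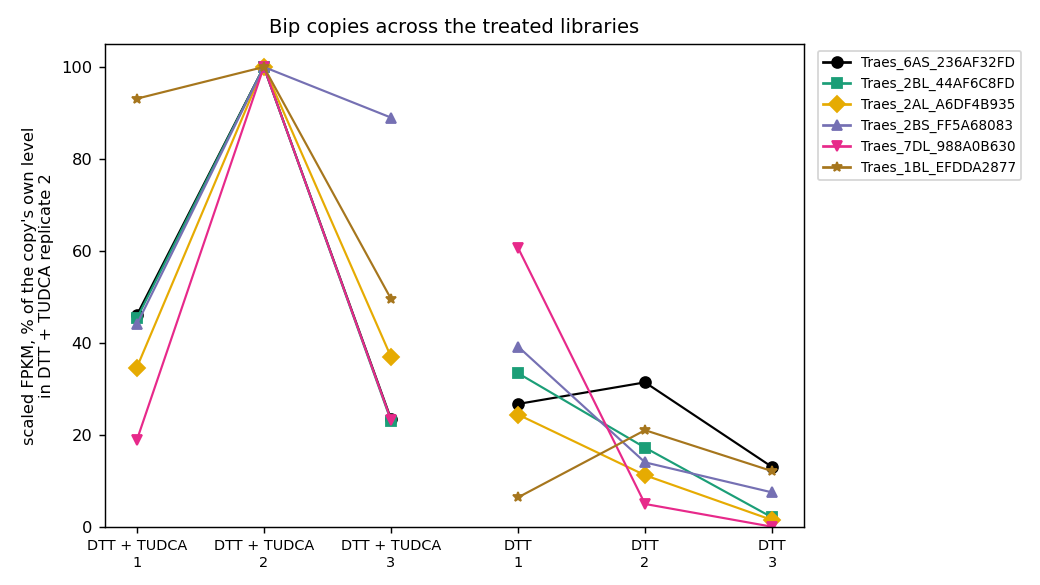
Scaled FPKM of each copy in the DTT + TUDCA and DTT libraries, as a percentage of its own level in T replicate 2. Lines join replicates within a group and mark no order in time. All copies peak in T replicate 2, and all but 1BL are lowest of D in replicate 3.

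The genes whose pattern was closest to the main copy lay on the short arms of chromosomes 6B and 6D or belonged to a family of folding enzymes. Over the 9 libraries, and among 55134 genes whose FPKM averaged 1 or more, Traes_6BS_804DA0429 had the highest Pearson's r with Traes_6AS_236AF32FD (0.991), followed by Traes_6DS_A593093E1 (0.99), the protein disulfide isomerase (PDI) gene Traes_5DL_546404AFD (0.985), Traes_6BS_D30CEBBC9 (0.985) and the PDI gene Traes_5BL_D6603D993 (0.984). PDIs form and rearrange disulfide bonds in the ER. Within the 6 treated libraries the 5 values were 0.996, 0.992, 0.973, 0.985 and 0.965. The genes on the short arms of chromosomes 6B and 6D carry no name in the tables used here. Whether they are further Bip copies was not tested, and they are in no Bip sum or share.

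The levels of the first 2 of these were also close to those of the 6AS copy. Traes_6DS_A593093E1 had 61.4, 145 and 33.5 scaled FPKM in T, 31.7, 40.7 and 19.7 in D, and 20, 17.2 and 10.7 in C. Traes_6BS_804DA0429 had 52.0, 94.9 and 23.5 in T, 29.6, 32.1 and 13.3 in D, and 17.1, 12.2 and 9.47 in C. For both genes, as for the 6AS copy, T overlapped D through replicate 3. Unlike the 6AS copy, both also had D replicate 3 below control replicate 1, so that D overlapped C. The other Bip copies were less like 6AS over the 9 libraries, with r of 0.932 for 2AL, 0.93 for 2BL, 0.881 for 1BL, 0.861 for 2BS and 0.842 for 7DL.

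**Figure D4:**
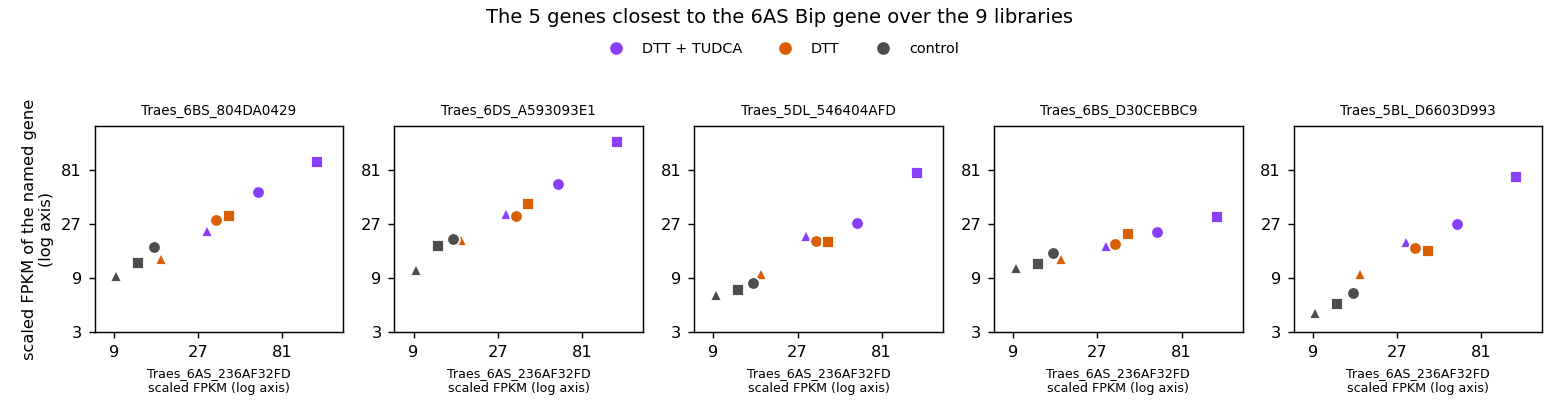
Scaled FPKM of the 5 genes with the highest Pearson's r with Traes_6AS_236AF32FD (vertical, log axis) against its own scaled FPKM (horizontal, log axis) in the 9 libraries. Circles, squares and triangles are replicates 1, 2 and 3, and r was 0.984 to 0.991.

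The 3 wheat orthologs of bZIP60, a transcription factor that acts on Bip promoters in Arabidopsis, were placed beside the Bip genes. Traes_7AL_25850F96F had 21.7, 57.3 and 20.8 scaled FPKM in T, 20.4, 18 and 8.64 in D, and 3.84, 3.98 and 4.68 in C. As with the Bip copies other than 1BL, T replicate 2 was the highest and D replicate 3 the lowest treated library. The same held for Traes_7BL_625F55A12 and Traes_7DL_3CE000E38. Of all genes tested, 24% were highest of the 9 libraries in T replicate 2, and 32.6% were lowest of D in replicate 3. All 3 rose in D/C (log2 fold change 1.80 to 1.89) and in T/C (2.65 to 2.96). In T/D their log2 fold changes were 0.84 to 1.07 and none was called.

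The other 60 genes of the ER pathway list were selected by the study on these same libraries, so their counts are not independent evidence of a direction. In D/C, 24 were called higher and 9 lower, with a median log2 fold change of 1.05 (-0.01 over all genes tested). Of all genes, 4.27% were called higher there and 3.75% lower. The log2 fold change in D/C was above 0 for 40 of the 60. In T/C, 33 were called higher and 15 lower, with a median of 1.40 (-0.02 over all genes), beside 4.36 and 3.5% of all genes. In T/D, 6 were called higher and 1 lower, with a median of 0.58 (-0.02 over all genes), beside 0.632 and 0.466%. T/D rests on unadjusted P-values, since 1 of the 78030 genes had a Benjamini-Hochberg-adjusted P-value under 0.05 (limma). Without T replicate 2 the list had 4 genes called there, and without D replicate 3 it had 1. T replicate 2 was the highest library for 34 of the 60 genes (56.7%) and for all Bip copies, beside 24% of all genes tested.

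The listed Hsp40 and NEF genes, from groups with members that act in the Bip cycle, were also higher in the treated leaves. Among the NEF genes, the paper annotates Traes_4BL_27330C1B8 only as an hsp70-interacting protein, so whether it acts on Bip is not known here. All 3 Hsp40 genes rose in D/C (log2 fold change 1.02 to 1.35) and in T/C (1.67 to 2.14). Of the 6 NEF genes, 2 were called higher in D/C and all 6 in T/C (1.34 to 2.29). In D/C all 6 had a log2 fold change above 0 (0.97 to 1.26). These 9 genes were not called in T/D, where their log2 fold changes were 0.17 to 1.03.

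Among the other folding genes, 4 of 8 PDI genes were called higher in D/C, where 7 had a log2 fold change above 0. In T/C, 7 PDI genes were called higher and 1 lower. Calnexin (CNX), a lectin chaperone of the ER membrane, rose in D/C (1.19, SE 0.37) and T/C (1.79). Sec61 is the channel through which proteins enter the ER. Of its 6 genes, 3 were called higher in D/C, and in T/C 4 were called higher and 2 lower. Hsp70 is the family to which Bip itself belongs. Of the 9 genes listed under that name, 4 were called higher in D/C, 5 in T/C and 3 in T/D. In D/C, 8 of the 9 had a log2 fold change above 0.

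The SAR1 gene Traes_7AL_FDC2E2F77, for a GTPase that starts the budding of transport vesicles from the ER, had the largest rise among the genes called in both comparisons with C. It had 32.2 ± 31.1 scaled FPKM in T (14.4 without replicate 2) and 9.19 ± 6.63 in D (SD, n = 3), and no fragment in C. The largest fall among the genes called in both comparisons was that of the sHSF gene Traes_2BS_72656E777, with 1.28 ± 0.896 in T and 1.09 ± 0.536 in D, against 5.19 ± 1.6 in C (SD, n = 3). On the log2 scale it fell by 2.21 (SE 0.48) in D/C and by 2.08 in T/C. In T/D the largest rise among the genes called was that of the sHSF gene Traes_5BL_9FDF53F78 (1.90, with 4.15 ± 3.6 in T, 2.08 without replicate 2, and 0.822 ± 0.113 in D). The only gene called lower was the UbcH5 gene Traes_6BS_72F59E261, a ubiquitin-conjugating enzyme (-1.28, with 4.35 ± 1.4 in T and 10.9 ± 4.12 in D).

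**Figure D5:**
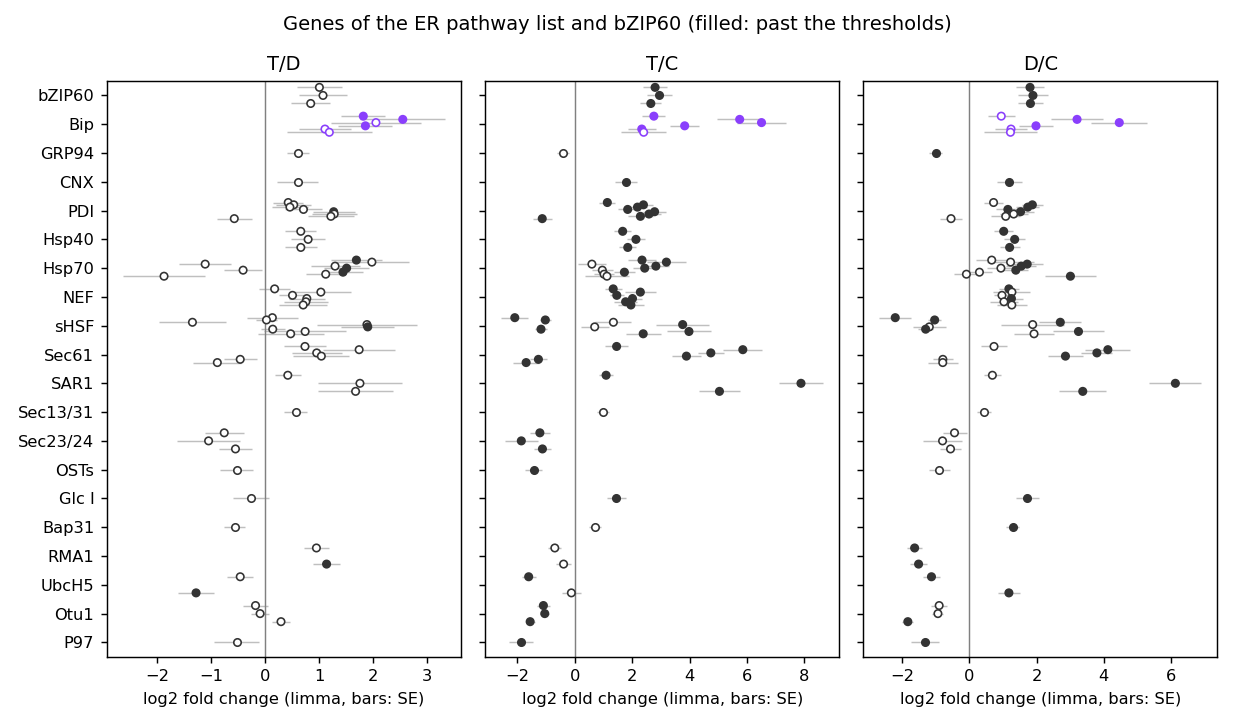
Log2 fold change (horizontal, with SE from limma) of the Bip genes (purple), 3 bZIP60 orthologs and 60 other ER pathway genes by family, in T/D, T/C and D/C. Filled points passed P under 0.01 and a log2 fold change of 1. All 6 Bip points lie right of 0 in the 3 panels, and against C the Bip values depend on the 0.1 added before the log2.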

How the data were processed

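The 9 leaf libraries (3 each of T, D and C) were sequenced as 150 bp read pairs. After filtering the reads, the authors aligned them to a wheat genome with TopHat2 2.0.12 (Bowtie2 2.2.3 and HTSeq 0.6.1 in the submitters' processing notes) and deposited FPKM values for 130542 genes. The genome release, strand setting and treatment of multiply mapped reads are not given in the sources used here.

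Fragments per gene were recovered from the FPKM values for 100% of the genes above 0, and implied transcript lengths were whole numbers within 0.05 for 99.17%. Libraries were scaled by median ratios over 54436 genes. The 78030 genes averaging 0.1 FPKM or more were fitted with limma 3.58.1 (R 4.3.3) on log2(scaled FPKM + 0.1), with all 3 groups in 1 model, and a test on simulated data was run first. The authors' DESeq analysis was not rerun, since the files give FPKM, and recovered fragments served for an alternative, the floors and the counting intervals. A group with no library above 3 fragments was called at the floor. No fold is given between 2 such groups, a lower bound where the group below had no fragment, and a pooled ratio with its interval where it had some.

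The Bip genes, lists and rules were chosen with earlier results of these data known. Named genes were the 6 Bip genes, the bZIP60 orthologs, the largest called rise and fall of the ER list in each comparison, and the 5 genes closest to the 6AS copy. Same-numbered T and C libraries deviated together (r = 0.27, 0.27 and 0.21 for replicates 1, 2 and 3), with D and C at -0.09, 0 and -0.09 and T and D at 0.09, 0.04 and -0.3. No source names a shared batch. Alternatives were 0.01 or 1 added, a minimum mean FPKM of 1 or none, unscaled or quantile-normalized values, a replicate block, limma-voom on recovered fragments, and each library left out. Leaving out libraries from single copies' ratios and bounds was added after seeing the data. PCR measurements were not analysed here.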

Additional observations from a re-analysis of the deposited data

How the results depend on the processing

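No Bip log2 fold change turned direction in 297 alternative values, of which 266 moved by less than 1 SD. Many of these values could hardly move. A replicate block or another minimum FPKM leaves a log2 fold change as it is. Leaving out a library of the group outside the comparison changes only the scaling. The genes were also selected on these libraries, so the counts are not independent support. The ratio of mean scaled FPKM of 7DL in T/D, 2.17, was 0.963 without T replicate 2 and 19.2 without D replicate 1 (chosen after seeing the data). The values of the 5 scarce copies against C depended most on the amount added before the log2. The main copy ranged over 0.57 (without T replicate 2) to 1.61 in T/D, 1.81 to 2.85 in T/C and 0.98 to 1.62 in D/C. Over the alternatives that tested all 6 copies, 0 to 4 were called in D/C, 4 to 6 in T/C and 0 to 4 in T/D. Numbers of genes called were 6255 in D/C, 6138 in T/C and 857 in T/D, and with 1 added they were 3728, 3402 and 363, with 21 in place of 33 ER pathway genes in D/C. A minimum mean FPKM of 1 left 456 genes in T/D. Leaving out libraries gave 609 (without T replicate 2) to 2182 genes (without T replicate 1) in T/D, 20 (without D replicate 1) to 40 ER pathway genes in D/C (21 without C replicate 2), and 1 (without D replicate 3) to 13 (without T replicate 3) in place of 7 in T/D. With the replicate block, T/C had 6276 genes called, and in T/D, whose same-numbered libraries did not deviate together, 13 ER pathway genes; the 6AS copy then passed in D/C and T/D, whereas the copies called in T/C were the same 5. Without scaling, 72.2% in place of 53.2% of the genes called in D/C were higher and 74.8% in place of 55.5% in T/C, and the medians of all genes moved to 0.22 and 0.16. The causes were not tested. Depth limits 7DL and 1BL, with 29 and 6 fragments in D.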

Other observations

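GRP94 (Traes_5BS_AB86BB5DE), the Hsp90 chaperone of the ER lumen that works beside Bip, and named here after its values were seen, showed another order of the groups. Its level was 8.65, 10.4 and 5.96 scaled FPKM in T, 4.96, 5.68 and 5.35 in D, and 10.3, 10.5 and 11.6 in C. Every D library was thus below every control, and T lay between, with replicate 2 inside the range of C. Its log2 fold change was -1.0 (SE 0.20, limma) in D/C, past the thresholds, and -0.40 in T/C and 0.60 in T/D, which were not. Over the 6 treated libraries its Pearson's r with the main Bip copy was 0.876 (0.686 without T replicate 2), against -0.157 over all 9.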
